A study of Mus musculus with 4 samples.

Results

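Expression of 9 transcription factor genes of the MLL-AF9 leukemia program outside the Hoxa cluster was followed in sorted mouse leukemia cells: Meis1, Pbx3, Mef2c, Myb, Eya1, Zfp521, Mecom, Runx2 and Sox4. The rule lists them by name and uses no measured value, although earlier results of these data were known when it was written. Each symbol was matched to its Ensembl gene identifier. These are 9 of the 45232 gene identifiers counted, and 8 of the 9 passed the filter on low counts and were tested. Zfp521 did not pass it.

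RNA sequencing libraries were made from leukemic granulocyte-macrophage progenitors (L-GMPs), the leukemic cells that resemble normal progenitors of granulocytes and macrophages. The cells of every library came from mice transplanted as secondary recipients of MLL-AF9 acute myeloid leukemia and were flow sorted when the mouse died, as cells positive for c-Kit and Sca-1, for CD34 and CD16/32 and for the reporters GFP and tdTom. The 2 Scr libraries came from 2 mice of the group labelled Scr, and the 2 miR-99 KD libraries from 2 mice of the group labelled miR-99 KD, named for the miR-99 microRNA family. The labels spell out neither abbreviation. The strain, the age, the vectors and whether the 4 recipients share 1 primary leukemia were not given in the sources used here, so p-values measure the spread between these 4 libraries only. Bulk libraries cannot tell fewer cells of a type from less RNA per cell.

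MLL-AF9 joins the chromatin-binding part of MLL to a partner that recruits elongation factors and the histone methyltransferase DOT1L, and so keeps a set of progenitor genes transcribed. Among its best known targets are Hoxa9 and Meis1. Meis1 and Pbx3 are TALE homeodomain proteins that bind DNA together with Hoxa9, and Myb, Mef2c, Eya1, Mecom, Runx2 and Sox4 are further regulators linked to the self-renewal of such cells. MicroRNAs of the miR-99 family pair with messenger RNAs mainly through the seed, bases 2 to 8 of the mature strand, and lower the amount of RNA and protein made from them.

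The 3 mature family members are printed because their shared seed decides which letters a target must hold. Their sequences are from RefSeq on GRCm38.p6, with the seed ACCCGUA in capitals. They lie at chr16:77598940-77598961, chr17:17830194-17830215 and chr9:41531437-41531458, in the order printed, all on the plus strand.
mmu-miR-99a-5p: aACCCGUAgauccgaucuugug
mmu-miR-99b-5p: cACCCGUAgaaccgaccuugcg
mmu-miR-100-5p: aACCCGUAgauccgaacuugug
The longest annotated 3' UTR of each of the 9 genes was searched on the transcript strand for TACGGGT (pairing with bases 2 to 8), ACGGGTA (bases 2 to 7 followed by A) and the 6 letters ACGGGT that both contain. The lengths searched ran from 1238 bases in Myb to 5687 bases in Meis1, and none of the 9 held a match. Over the 12368 tested genes with a 3' UTR, 2.35% held a match of 7 letters and 6.85% held ACGGGT. A search of this kind says only that these letters are not in that stretch.

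Promoter windows from RefSeq (GRCm38.p6, 250 bases before to 50 after a start) matched 6 of the 9 genes, with 9 windows in all. Pbx3 and Eya1 had none, and no window was looked up for Zfp521. The parts before the start are printed for Mecom, the gene whose level differed most between libraries, at both starts that had a window, and for Meis1. Capitals mark a match of TGACAG, the core letters bound by Meis proteins, or of TGTGGT, those bound by Runx proteins, with CTGTCA and ACCACA the same letters on the other strand. All are on the minus strand of the genome and are written 5′ to 3′ along the gene. They cover chr3:30013205-30013454, then chr3:30509760-30510009, farther upstream, and chr11:19018970-19019219. Both Mecom windows lie inside the annotated gene, chr3:29951296-30548008.
Mecom, inner start: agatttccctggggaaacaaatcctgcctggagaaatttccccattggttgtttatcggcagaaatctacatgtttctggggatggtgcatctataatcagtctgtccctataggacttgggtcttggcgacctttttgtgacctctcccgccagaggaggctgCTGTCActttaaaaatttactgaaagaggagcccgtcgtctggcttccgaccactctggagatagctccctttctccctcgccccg
Mecom, outer start: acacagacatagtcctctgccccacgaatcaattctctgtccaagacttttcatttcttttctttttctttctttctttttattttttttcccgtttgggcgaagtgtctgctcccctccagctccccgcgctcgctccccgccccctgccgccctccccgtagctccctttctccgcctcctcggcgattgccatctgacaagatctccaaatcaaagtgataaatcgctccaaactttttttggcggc
Meis1: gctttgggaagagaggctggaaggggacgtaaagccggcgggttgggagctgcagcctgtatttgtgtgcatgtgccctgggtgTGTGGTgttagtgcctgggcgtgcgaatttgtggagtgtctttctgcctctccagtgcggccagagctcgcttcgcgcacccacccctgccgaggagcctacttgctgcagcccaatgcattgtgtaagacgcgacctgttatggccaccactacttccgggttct
The inner Mecom window held a Meis core at position -86, counted from the start and negative before it, and the outer one held neither core. The Meis1 window held a Runx core at position -166. In Runx2 the window held 3 Runx cores, at positions -80, 24 and 32, all on the strand opposite to the gene. Among 32851 windows of the same length, 19.2% held TGACAG, 16.8% held TGTGGT and 0.183% held TGTGGT at least 3 times. The windows of Myb, Sox4 and Mef2c held neither. The letters TGATTNAT, bound by Pbx and Hox proteins together, occurred in none of these 9 windows and in 3.22% of all windows. Both strands were searched, and no Meis or Runx core overlapped another match. These matches are letters only, since no binding was measured.

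Gene counts summed to between 38458519 and 42674407 per library, and values are counts per 1000000 of these sums (CPM). Scr 1 stood apart from the other libraries. In it 28573 genes had a count, against 21372 to 24038 elsewhere, and the 1168 olfactory receptor (Olfr) genes summed to 51.9 CPM in it, against 4.78 to 15.0 CPM. Other library measures ran with the groups: the mitochondrial share of gene counts was 0.650% and 0.637% in Scr against 0.853% and 1.16% in miR-99 KD, and the share of entries outside annotated genes was 19.8% and 14.9% against 13.5% and 12.0%. Their part in the group differences was not tested. Across genes, Scr 2 resembled miR-99 KD 1 (r = 0.989 of log2 values, across genes and not over replicates) more than Scr 1 (r = 0.976). The genes of Mir99a, Mir99b and Mir100 had 0 counts in all libraries, so they check no label. Of the sort markers, Kit, Cd34 and Fcgr3 had at least 9882 counts per library, but Ly6a, which encodes Sca-1, had 4, 8, 5 and 4 counts in Scr 1, Scr 2, miR-99 KD 1 and miR-99 KD 2. This order of libraries holds for every set of 4 values that follows.

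No gene of the 9 differed between the groups past an adjusted p of 0.05 (edgeR's quasi-likelihood test, Benjamini-Hochberg over all 15591 genes tested), and no gene of the whole table did (0% called). DESeq2 called none of the 9 either, against 1.19% of the genes it gave an adjusted p. At an unadjusted p under 0.05 in edgeR, Meis1 was lower in miR-99 KD, where 5.23% of all genes tested were, and Eya1 was higher, where 2.66% were. Both miR-99 KD libraries lay below both Scr libraries in Meis1 and Pbx3, as in 25.3% of all genes, and above them in Eya1, as in 18.9%. The remaining 6 genes overlapped between groups. The log2 fold change of miR-99 KD over Scr was positive in 4 of the 8 tested genes and negative in 4, with a median of -0.02, beside -0.01 over all genes tested. That median has no stable sign: it was -0.24 without Scr 1, 0.27 without Scr 2, -0.096 without miR-99 KD 1, 0.21 without miR-99 KD 2 and 0.14 in limma-voom.

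**Figure D1:**
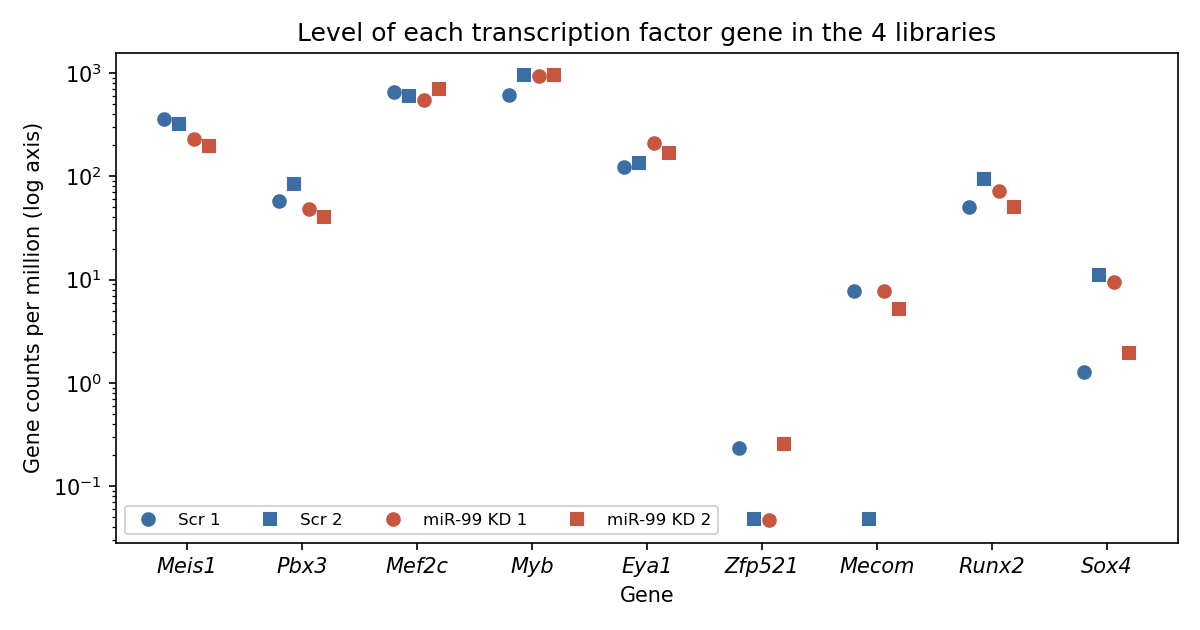
Gene CPM (gene counts scaled to a total of 1000000) of each of the 9 transcription factor genes (logarithmic axis) in Scr 1, Scr 2, miR-99 KD 1 and miR-99 KD 2, 1 point per library. Meis1 and Pbx3 have both miR-99 KD points below both Scr points, Eya1 has them above, and the Scr 2 point of Mecom, at 0.0478 CPM, lies far below its other 3 points.

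Meis1, the homeodomain cofactor of Hoxa9, varied little within each group and was lower in both miR-99 KD libraries. Its identifier is ENSMUSG00000020160, at chr11:18879817-19018985 on the minus strand (GRCm38). It was measured at 359, 319, 231 and 196 CPM. Both Scr libraries were high and both miR-99 KD libraries were low, with no overlap and the lowest value in miR-99 KD 2. The means were 339 ± 28.6 CPM (SD, n = 2) in Scr against 213 ± 24.7 CPM (SD, n = 2) in miR-99 KD. The log2 fold change was -0.61 ± 0.16 (SE), a level 1.53-fold higher in Scr, with an unadjusted p of 0.0174 and an adjusted p of 0.580 in edgeR. It ran from -0.69 to -0.45 when each library was left out in turn. A gene model annotated on the same strand, Gm37818, shares 1029 exonic bases with Meis1 (9.77% of its exons), and reads there may have been counted for neither. Gm37818 itself had 160, 152, 83 and 58 counts, lower in both miR-99 KD libraries as well. An antisense gene, Gm16140, shares 896 exonic bases with Meis1 (8.51% of its exons) and had 11, 8, 8 and 7 counts. If the counting ignored strand, reads in that stretch would also be ambiguous.

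Pbx3, the other TALE partner, holds Meis1 and Hoxa proteins on DNA. Its identifier is ENSMUSG00000038718, at chr2:34171457-34373142 on the minus strand. Its levels were 58.0, 83.4, 48.4 and 40.7 CPM. Scr 2 was the high library, and Scr 1 lay nearer to miR-99 KD 1 than to Scr 2. Between groups the log2 fold change was -0.63 ± 0.29 (SE), with an adjusted p of 0.665 in edgeR. Without Scr 2 it shrank to -0.21, and without Scr 1 it was -0.85 with an unadjusted p of 0.0391 and an adjusted p of 0.647 in edgeR, so its size turns on which Scr library is used.

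As with Meis1 and Pbx3, no other member of the TALE family passed an adjusted p of 0.05 in edgeR. Of 9 listed, 5 were tested, and all 5 had a negative log2 fold change. Their median was -0.33, with none at an unadjusted p under 0.05. In 4 of the 5, both miR-99 KD libraries lay below both Scr libraries, as in 25.3% of all genes tested. Pbx2, a close relative of Pbx3, was at 20.7 ± 1.92 CPM (SD, n = 2) in Scr against 10.7 ± 4.59 CPM in miR-99 KD, a log2 fold change of -0.89 ± 0.39 (SE) with an adjusted p of 0.659 in edgeR. Pknox1, which also dimerises with Pbx proteins and had the highest level per exon length of the list, was at 154, 132, 114 and 104 CPM, with a log2 fold change of -0.33 ± 0.16 (SE).

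Hoxa9, which binds DNA with both partners, was at 301, 351, 169 and 165 CPM, a log2 fold change of -0.92 ± 0.19 (SE) with an adjusted p of 0.466 in edgeR. Of the 10 tested genes of the Hoxa cluster, 8 had a negative log2 fold change, Hoxa3 and Hoxa9 were lower at an unadjusted p under 0.05, and Hoxa10 (80.9, 180, 96.8 and 71.9 CPM) overlapped between groups. Hoxa3 was at 12.1, 15.0, 4.78 and 4.73 CPM, with an adjusted p of 0.466 in edgeR and 0.0234 in DESeq2.

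Genes described as targets of Hoxa9 and Meis1 were mixed. Of 15 listed, 14 were tested, 4 with a log2 fold change above 0 and 10 below it, and the median was -0.30. This list includes Sox4, itself among the 9 genes followed here. It also shares Flt3, Msi2 and Erg with the list of other MLL-AF9 effectors given below, so the lists are not independent. Lower at an unadjusted p under 0.05 were Ccl3 and Msi2, and none was higher, beside 5.23% and 2.66% of all genes tested. Ccl3, a chemokine, was at 11.3, 11.0, 3.80 and 6.23 CPM, a log2 fold change of -1.10 ± 0.32 (SE) with an adjusted p of 0.583 in edgeR. Dnajc10, a chaperone of the endoplasmic reticulum and the gene of this list with the highest level per exon length, was at 505, 625, 438 and 411 CPM. Flt3, a receptor kinase, was at 251, 359, 161 and 251 CPM, with overlapping groups and a log2 fold change of -0.53 ± 0.33 (SE). Hlf, a factor of stem cells, was low at 2.65, 2.77, 2.25 and 1.06 CPM, and Trib2, which degrades C/EBPα, had 13, 0, 1 and 9 counts and was not tested.

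Myb, a factor on which MLL-AF9 cells depend for growth, was the most abundant of the 9 per exon length. Its identifier is ENSMUSG00000019982, at chr10:21124935-21160984 on the minus strand. It was measured at 617, 947, 942 and 951 CPM. Scr 1 was the low library, and the other 3 lay within a few CPM of each other. The log2 fold change of 0.31 ± 0.29 (SE), with an adjusted p of 0.773 in edgeR, was 0.05 without Scr 1 and 0.79 without Scr 2, where the unadjusted p was 0.0412 and the adjusted p 0.358 in edgeR. An annotated antisense transcript, Gm26577, shares 559 exonic bases with Myb (6.26% of its exons) and had 155, 139, 95 and 89 counts, so reads there may also have been set aside.

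Of 16 described Myb targets present in the table, all were tested. In 11 the log2 fold change was positive and in 5 negative, with a median of 0.37. At an unadjusted p under 0.05 in edgeR, Mpo, Elane, Prtn3, Lyz2 and Hspa8 were higher and Kit and Adora2b lower. The first 4 encode granule proteins of myeloid cells and Hspa8 a chaperone. Over all genes tested, 2.66% were higher and 5.23% lower at that p. Both miR-99 KD libraries lay above both Scr libraries in 9 of the 16 and below in 2, beside 18.9% and 25.3% of all genes. Mpo, the myeloperoxidase of primary granules, was at 713, 503, 2313 and 4714 CPM, a log2 fold change of 2.59 ± 0.40 (SE) with an adjusted p of 0.421 in edgeR and 1.37e-06 in DESeq2. Elane, neutrophil elastase, was at 2305 ± 739 CPM (SD, n = 2) in Scr against 5281 ± 2141 CPM in miR-99 KD. Kit, the stem cell factor receptor, was at 453, 424, 298 and 232 CPM, a log2 fold change of -0.67 ± 0.19 (SE) with an adjusted p of 0.580 in edgeR. Myc, also a described Myb target, was at 522 ± 81.7 CPM in Scr against 492 ± 75.5 CPM in miR-99 KD, with a log2 fold change of -0.03 ± 0.19 (SE). Of the relatives of Myb, Mybl1 was at 0.695 ± 0.0639 CPM in Scr against 1.09 ± 0.0524 CPM in miR-99 KD, and Mybl2, a cell cycle factor, was at 77.4 ± 28.0 and 69.4 ± 15.6 CPM.

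Granulocyte markers were read out beside these genes. All 14 had a positive log2 fold change. In edgeR none of them was called, 10 had an unadjusted p under 0.05 with a higher level, beside 2.66% of all genes tested, and DESeq2 called 7. In 11 of the 14, both miR-99 KD libraries lay above both Scr libraries, as in 18.9% of all genes, and none was at 0. Their summed level was 1697 to 4352 CPM in Scr against 7126 to 19072 CPM in miR-99 KD, with the highest sum in miR-99 KD 2, the library with the lowest Meis1 and Pbx3. Their part in the differences of Meis1, Pbx3, Eya1 and the Myb targets was not tested.

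Mef2c, a MADS-box factor known for lymphoid and monocyte fates and for aggressive MLL leukemias, was at 661, 593, 547 and 694 CPM. Its identifier is ENSMUSG00000005583, at chr13:83504034-83667080 on the plus strand. The highest and the lowest of the 4 values were both in miR-99 KD, so the groups overlapped fully. Its log2 fold change was 0.04 ± 0.17 (SE) with an adjusted p of 0.949 in edgeR, and it lay between -0.091 and 0.25 when 1 library was left out. Its relative Mef2d, at 55.1, 114, 112 and 90.1 CPM, had a low value in Scr 1, as Myb did, and a log2 fold change of 0.29 ± 0.44 (SE). Mef2a and Mef2d were the 2 of 3 family members tested, both with a positive log2 fold change and overlapping groups.

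Runx2, a Runt-domain factor best known for bone formation and also expressed in myeloid progenitors, was at 50.2, 94.3, 71.4 and 50.8 CPM. Its identifier is ENSMUSG00000039153, at chr17:44495987-44814797 on the minus strand. Each group held a low and a high library, and the low ones, Scr 1 and miR-99 KD 2, were nearly equal. The log2 fold change of -0.21 ± 0.42 (SE), with an adjusted p of 0.892 in edgeR, ran from -0.57 to 0.46 when each library was left out. Of the osteoblast genes, Bglap, which encodes osteocalcin, had 0 counts in all libraries, Sp7 had 1, 0, 1 and 1 and Ibsp had 28, 43, 22 and 67.

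Among Runx partners, 8 of 8 listed genes were tested, 4 with a log2 fold change above 0 and 4 below it, a median of 0.02 and none at an unadjusted p under 0.05. Cbfb, the subunit that binds DNA with every Runx protein, was at 63.2, 205, 209 and 160 CPM, lowest in Scr 1. Cbfa2t3, a corepressor, was the gene of this list with the smallest p and was at 80.6 ± 1.97 CPM (SD, n = 2) in Scr against 64.7 ± 0.206 CPM in miR-99 KD, a log2 fold change of -0.26 ± 0.17 (SE) with an adjusted p of 0.716 in edgeR. Runx1, the member of the family that governs blood formation, was at 53.9, 113, 139 and 102 CPM, lowest in Scr 1 as well.

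Sox4, an HMG-box factor that is held down by C/EBPα and supports leukemic growth, varied widely inside both groups. Its identifier is ENSMUSG00000076431, at chr13:28948919-28953713 on the minus strand. It had 49, 460, 406 and 83 counts, or 1.27, 11.0, 9.51 and 1.95 CPM. Scr 2 and miR-99 KD 1 were high, and Scr 1 and miR-99 KD 2 were low, so each group held 1 library of each kind. Its log2 fold change was -0.09 ± 1.26 (SE) with an adjusted p of 0.987 in edgeR, and leaving out 1 library moved it anywhere from -1.62 to 2.34. A noncoding gene on the opposite strand, Gm26735, overlaps 2616 bases of the single Sox4 exon (54.6%) and had 0 counts in all libraries. If the counting ignored strand, reads in that stretch would be ambiguous and Sox4 would be under-counted, and the strand setting was not given in the sources used here.

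Of 8 other Sox genes, 5 were tested. Sox5, Sox6, Sox13 and Sox18 were lower in both miR-99 KD libraries and Sox12 was higher, each at an unadjusted p under 0.05. Over all genes tested, 5.23% were lower and 2.66% higher at that p. Sox13, the only 1 of the 5 above 5 CPM, was at 64.6, 68.8, 40.2 and 33.3 CPM, a log2 fold change of -0.81 ± 0.21 (SE) with an adjusted p of 0.578 in edgeR. Sox5 was at 3.20, 2.51, 0.445 and 0.329 CPM, a log2 fold change of -2.81 ± 0.35 (SE) with an adjusted p of 0.335 in edgeR and 0.00115 in DESeq2. The groups did not overlap in these 5 genes, below in 4 and above in 1, beside 25.3% and 18.9% of all genes tested.

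Eya1, a phosphatase and transcriptional coactivator that is a target of MLL fusions, was the only 1 of the 9 with both miR-99 KD libraries above both Scr libraries. Its identifier is ENSMUSG00000025932, at chr1:14168954-14310235 on the minus strand. It was measured at 124, 135, 211 and 169 CPM. Both Scr values lay close together, and miR-99 KD 1 was the highest library. The means were 130 ± 8.42 CPM (SD, n = 2) in Scr against 190 ± 29.3 CPM (SD, n = 2) in miR-99 KD. This gave a log2 fold change of 0.60 ± 0.21 (SE), a level 1.52-fold higher in miR-99 KD, with an unadjusted p of 0.0379 and an adjusted p of 0.621 in edgeR. It stayed between 0.48 and 0.80 when 1 library was left out, with adjusted p from 0.394 to 0.998.

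Dach1, a corepressor of the same regulatory network, was at 35.5, 40.1, 49.98 and 21.6 CPM, with overlapping groups and a log2 fold change of -0.02 ± 0.46 (SE). Eya3, the other well measured Eya gene, was at 23.3, 20.3, 25.4 and 24.8 CPM. Its 2 miR-99 KD values lay above both Scr values, with a log2 fold change of 0.26 ± 0.19 (SE) and an unadjusted p of 0.226 in edgeR.

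Mecom, whose zinc finger product EVI1 maintains blood stem cells and marks aggressive MLL leukemias, was present in 3 libraries and nearly missing from 1. Its identifier is ENSMUSG00000027684, at chr3:29951296-30548008 on the minus strand. It had 300, 2, 334 and 222 counts, or 7.80, 0.0478, 7.83 and 5.22 CPM. Scr 1 and miR-99 KD 1 were nearly equal and miR-99 KD 2 a little lower, while Scr 2 lay below the 3 counts that a count of 0 would allow (0.0716 CPM in that library). Relative to Scr 2, the level was 163-fold in Scr 1 (95% interval 44.8 to 1355), 164-fold in miR-99 KD 1 (45.0 to 1359) and 109-fold in miR-99 KD 2 (29.9 to 908). These intervals cover counting error only.

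The group comparison of Mecom follows from that 1 library. With all 4 the log2 fold change was 0.86 ± 1.65 (SE) with an adjusted p of 0.885 in edgeR. Without Scr 2 it was -0.083, and without Scr 1, when Scr 2 stood alone for its group, it was 7.06 with an adjusted p of 2.03e-12 in edgeR, beside 0.993% of the 15910 genes then tested that were called higher. The fit without Scr 1 assumes that Scr 2 varies like the other group, and with 2 counts its fold change depends on the prior count. Gene counts do not separate the short product from the long one that starts farther upstream. The antisense gene Mecomos had 10, 2, 1 and 1 counts.

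Genes described as Mecom targets were evenly split between directions. Of 15 in the table, 14 were tested, 7 with a log2 fold change above 0 and 7 below it, a median of -0.04 and none at an unadjusted p under 0.05. Angpt1, a ligand of the Tek receptor, was at 174, 190, 123 and 51.9 CPM, a log2 fold change of -1.002 ± 0.46 (SE) with an adjusted p of 0.661 in edgeR. Calr, calreticulin and the gene of this list with the highest level per exon length, was at 1897 ± 85.3 CPM (SD, n = 2) in Scr against 1912 ± 6.80 CPM in miR-99 KD. Gata2, a stem cell factor that EVI1 can activate, was at 29.3, 72.5, 60.6 and 17.3 CPM, highest in Scr 2, the library with 2 Mecom counts. Markers of stem and multipotent cells summed to 55.4 and 88.8 CPM in Scr and to 80.5 and 33.1 CPM in miR-99 KD. That list holds Mecom and also Gata2, which made up most of the sum in every library. Procr, a defining marker, had 5, 1, 2 and 0 counts. Of the relatives, Prdm16 was too low to be tested, Prdm1 was at 0.754, 0.478, 0.398 and 0.376 CPM, and Prdm2, a histone methyltransferase, was at 52.2 ± 7.76 CPM in Scr against 56.8 ± 9.84 CPM in miR-99 KD.

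Zfp521, a zinc finger cofactor of early blood cells that restrains Ebf1, was scarcely detected. Its identifier is ENSMUSG00000024420, and it had 9, 2, 2 and 11 counts, at most 0.259 CPM. Scr 1 and miR-99 KD 2 held nearly all of them, and Scr 2 and miR-99 KD 1 lay under the limit of 3 counts. Relative to Scr 2 the level was 4.90-fold in Scr 1 (95% interval 1.01 to 46.6) and 5.41-fold in miR-99 KD 2 (1.18 to 50.3), for counting error only. Its partner Ebf1, the factor of early B cells, had 21, 4, 1 and 8 counts and its relative Zfp423 13, 2, 0 and 1, and none of the 4 listed Zfp521 relatives was tested. The libraries with more Zfp521 counts were also those with the higher Olfr sums, 51.9 and 15.0 CPM, and whether such low counts stand for transcripts of the sorted cells was not tested.

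Levels of different genes were compared as RPKM, reads per kilobase of exon and per 1000000 gene counts. Myb came first at 69.1, 106, 105 and 106 RPKM, followed by Mef2c (34.8 to 44.2 RPKM), Meis1 (18.6 to 34.1), Eya1 (15.8 to 27.0), Pbx3 (6.66 to 13.7), Runx2 (5.68 to 10.7), Sox4 (0.266 to 2.29), Mecom (0.00384 to 0.630) and Zfp521 (0.00667 to 0.0368). The ranges over the 4 libraries were apart between Myb and Mef2c, between Mef2c and Meis1 (34.8 against 34.1, barely), between Eya1 and Pbx3 and between Runx2 and Sox4. They overlapped between Meis1 and Eya1, Pbx3 and Runx2, Sox4 and Mecom, and Mecom and Zfp521. By these values Meis1 and Eya1 changed places between groups. Meis1 was the higher in both Scr libraries (34.1 and 30.2 RPKM against 15.8 and 17.4), and Eya1 in both miR-99 KD libraries (27.0 and 21.7 RPKM against 21.9 and 18.6). Meis1 may be under-counted where other genes overlap its exons, and Eya1 and Mef2c have no such overlap. The order of Meis1 against Eya1 in miR-99 KD, and its separation from Mef2c, may therefore not hold. Among the 15591 genes tested, 3.27% were at or above the mean RPKM of Myb and 81.5% at or above that of Mecom.

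The 2 libraries of a group lay close together in some of these genes and far apart in others. Between Scr 1 and Scr 2, after TMM scaling, the absolute log2 difference was 0.01 in Mef2c, 0.03 in Meis1, 0.27 in Eya1, 0.67 in Pbx3, 0.76 in Myb, 1.05 in Runx2, 3.25 in Sox4 and 7.21 in Mecom, beside a median of 0.231 over all genes tested. The Mecom value rests on 2 counts in Scr 2, so its size is known only within the interval given above. Among the 15541 tested genes with counts in both Scr libraries, 135 (0.869%) were as wide as Sox4. Between miR-99 KD 1 and miR-99 KD 2, Mecom differed by 0.62 and Sox4 by 2.32 (4.99-fold), which 1.61% of genes reached, beside a median of 0.366. Sox4 was thus wide in both groups and Mecom mainly in Scr.

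**Figure D2:**
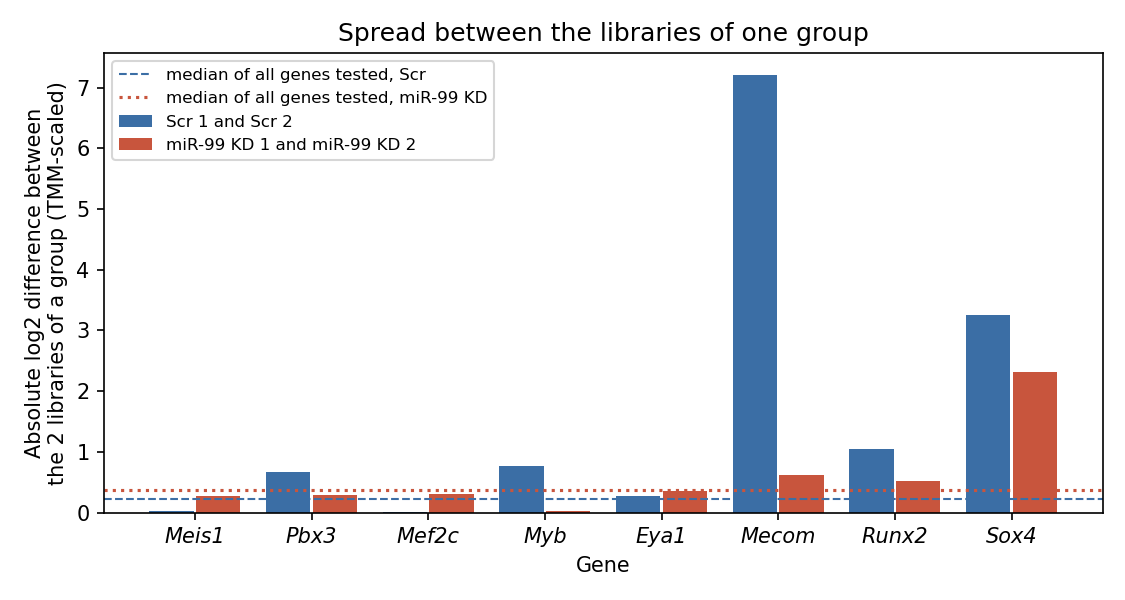
Absolute log2 difference (TMM-scaled) between the 2 Scr libraries (blue bars) and between the 2 miR-99 KD libraries (red bars) for the 8 tested genes, with dashed and dotted lines at the medians of all genes tested, 0.231 and 0.366. The Scr bar of Mecom reaches 7.21, and Sox4 has tall bars in both groups, 3.25 and 2.32.

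The directions within Scr were not all alike. Pbx3, Myb, Runx2, Eya1 and Sox4 were higher in Scr 2 than in Scr 1 after scaling, Mecom was lower, and Meis1 and Mef2c differed by at most 0.03. Between the miR-99 KD libraries, Mef2c was higher in miR-99 KD 2, Myb differed by 0.02, and the other 6 tested genes were higher in miR-99 KD 1. Leaving out 1 library changed the sign of Mecom, Mef2c, Runx2 and Sox4, whereas Meis1, Pbx3, Myb and Eya1 kept theirs in all 12 alternative settings tried.

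**Figure D3:**
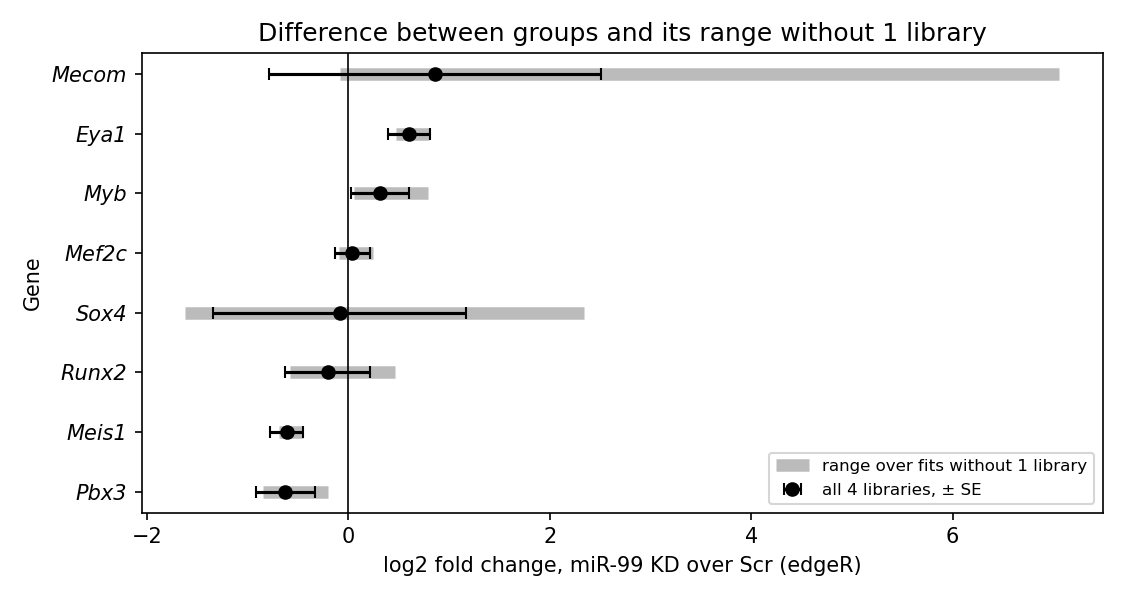
Log2 fold change of miR-99 KD over Scr for the 8 tested genes (points, edgeR, with bars of 1 SE) and its range over fits that leave out 1 library (grey). The grey ranges of Meis1, Pbx3, Myb and Eya1 lie on 1 side of 0, and that of Mecom runs from -0.083 to 7.06.

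Other effectors of the MLL-AF9 program were described in the same fit. Of 20 listed genes, 19 were tested, 7 with a positive and 12 with a negative log2 fold change, and the median was -0.03. Tcf4 was higher at an unadjusted p under 0.05, and Jmjd1c, Msi2, Bahcc1 and Ptprcap were lower, beside 2.66% and 5.23% of all genes tested. Tcf4, an E protein, was at 3.82, 2.22, 20.04 and 38.6 CPM, a log2 fold change of 3.34 ± 0.46 (SE) with an adjusted p of 0.356 in edgeR and 1.92e-09 in DESeq2. Jmjd1c, a demethylase family protein that supports this leukemia, was at 172, 179, 117 and 81.8 CPM. Cdk6, a cell cycle kinase, was at 1154 ± 162 CPM (SD, n = 2) in Scr against 1099 ± 147 CPM in miR-99 KD, a log2 fold change of -0.02 ± 0.22 (SE), and Lmo2, a bridging factor and the gene of this list with the highest level per exon length, was at 245, 611, 549 and 368 CPM. In none of the other family, program and target lists did edgeR call a gene, and DESeq2 called Sox5, Hoxa3, Tcf4 and Mpo.

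**Figure D4:**
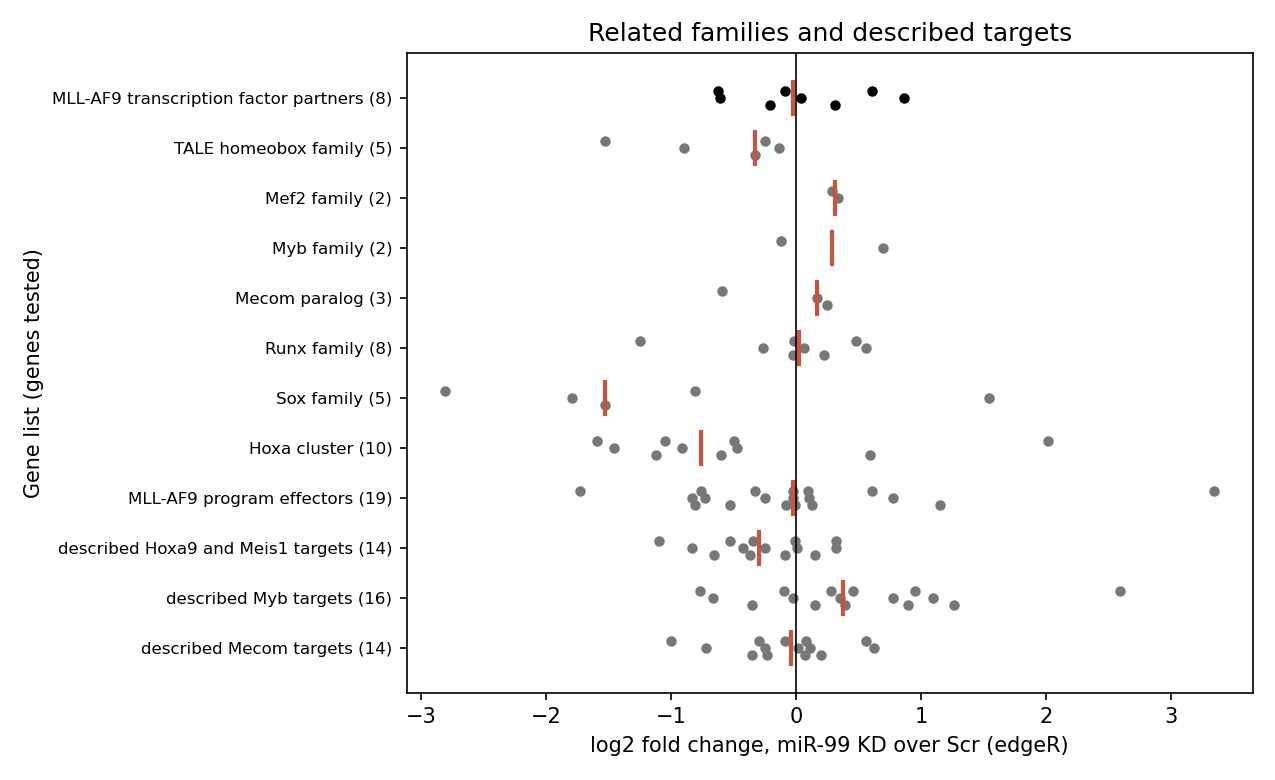
Log2 fold change of miR-99 KD over Scr (edgeR) for the 8 tested transcription factor genes (black) and for the tested genes of 11 related lists (grey), 1 point per gene and a red line at each median. The medians run from -1.53 in the Sox family to 0.37 in the described Myb targets, with -0.02 for the transcription factor genes.

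Markers of other cell types were read out in the same libraries. Monocyte and macrophage markers summed to 893 to 1089 CPM in Scr against 1134 to 1454 CPM in miR-99 KD, with a positive log2 fold change in 6 of 14. B cell and early lymphoid markers summed to 93.2 to 111 and 76.7 to 103 CPM, with Dntt at 0 in all libraries. Megakaryocyte markers summed to 62.4 to 70.7 and 32.7 to 73.7 CPM, with Treml1 at 0 in all and Pf4 at 1, 0, 0 and 4 counts. Plasmacytoid dendritic cell markers, a list that holds Tcf4, summed to 182 to 255 and 335 to 502 CPM, with Siglech at 14, 0, 17 and 3 counts. The 6 tested were split, 3 above 0 in log2 fold change and 3 below it. Only Tcf4 and Irf8 were higher at an unadjusted p under 0.05 in edgeR. Stroma, endothelium and bone markers summed to 609 and 546 CPM in Scr and to 353 and 278 CPM in miR-99 KD. Of 15 listed, 8 were tested, 6 with a log2 fold change below 0, and Sparc and Vcam1 were lower at an unadjusted p under 0.05. Vcam1, an adhesion molecule also found on blood cells, was the most abundant of them at 476, 430, 201 and 137 CPM, with an adjusted p of 0.463 in edgeR and 0.0149 in DESeq2, while Bglap was at 0 in all and Cdh5 had 2, 1, 0 and 0 counts. Erythroid markers summed to 199 and 241 CPM in Scr and to 204 and 321 CPM in miR-99 KD. Of 12 tested, 8 had a log2 fold change below 0. Car1, Ermap and Slc4a1 were lower and Tfrc was higher at an unadjusted p under 0.05, and DESeq2 called Slc4a1. T and NK cell markers summed to 168 and 115 CPM in Scr and to 152 and 161 CPM in miR-99 KD, with 2 of 4 tested lower at an unadjusted p under 0.05. Mast cell, basophil and eosinophil markers summed to 182 and 209 CPM and to 321 and 153 CPM, with none of 7 tested under that p. Beside these counts, 5.23% of all genes tested were lower and 2.66% higher at an unadjusted p under 0.05 in edgeR. The part of these cell types in the differences above was not tested.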

How the data were processed

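Gene read counts of 4 libraries were deposited as whole numbers per Ensembl identifier. Per the labels' protocols, RNA was extracted in Trizol LS and amplified with SMARTer chemistry. The submitters' processing notes name STAR, Picard, HTSeq and DESeq2 and the build mm9. Versions, annotation and strand setting were not given in the sources used here. Symbols, exon lengths and coordinates came from GENCODE M21 on GRCm38 by identifier (44585 of 45232 matched), with no coordinates converted. The 5 categories that name no gene held 43.7% to 49.7% of entries and stayed out of library sizes and tests.

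Genes were tested, two-sided, for miR-99 KD against Scr by edgeR's quasi-likelihood method (version 4.0.16 in R 4.3.3). TMM factors were 0.969 to 1.07, the default filter used a minimum count of 10, and p-values were adjusted after Benjamini-Hochberg. The fit had 2 residual degrees of freedom and a biological coefficient of variation of 0.320. Groups were taken not to overlap where each miR-99 KD library lay above, or each below, all Scr libraries in TMM-scaled CPM. A count of 0 allows up to 3 counts, 0.0703 to 0.0780 CPM, and intervals cover counting error only, since amplified reads without molecular identifiers are not independent molecules. Replicate numbers did not pair the samples by any label.

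From each list shown the text names the gene with the smallest unadjusted p and that with the highest level per exon length, with Hoxa9, Hoxa10, Flt3, Myc, Cdk6, Trib2, Hlf and Kit always. Others are named for a count of 5 or fewer, or were chosen after their values were seen. The members and lists were chosen with earlier results of these data known. Alternatives were DESeq2 1.42.0, limma-voom (limma 3.58.1), other scaling factors and filters, a replicate block, each library left out and, chosen after seeing the data, a correction for GC content. A few genes of the lists are not reported here.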

Additional observations from a re-analysis of the deposited data

How the results depend on the processing

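The count of genes called over the whole table depended on the method: 0 with edgeR (1230 at an unadjusted p under 0.05), 207 with DESeq2, 23 with upper-quartile factors, 9 with no filter on low counts, and 0 to 294 when each library was left out, with 294 (158 higher, 136 lower) without Scr 1. None of the 9 transcription factor genes was called under any of these except Mecom without Scr 1, so that count ran from 0 to 1. The number of these genes with groups apart rose from 3 to between 4 and 7 when a library was left out. It was 7 without Scr 1, 6 without Scr 2 and 5 without miR-99 KD 2. Groups of fewer samples separate more easily. The share of all genes apart in these fits was not computed, so no conclusion is drawn from the rise. Log2 fold changes changed sign for Sox4 with limma-voom (0.26) and over leaving out libraries (-1.62 to 2.34), for Mecom (-0.083 to 7.06), for Runx2 (-0.57 to 0.46) and for Mef2c (-0.091 to 0.25, and -0.033 with the GC correction). The causes were not tested. With the replicate number as a block, 0 genes were called, 650 had an unadjusted p under 0.05, Sox4 was at 0.23, and it changed no call of these genes. Same-numbered libraries deviated in opposite directions (r = -0.459 across 15591 genes), and no label ties the numbers together.

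With 2 libraries per group and 2 residual degrees of freedom, a p that misses the threshold does not show that levels were equal. Low counts limit how well the levels of Zfp521, and of Mecom in Scr 2, are known, both at or near the 3 counts that a count of 0 allows. Scr 2 had 41870314 gene counts in all, against 38458519 in Scr 1, where Mecom had 300. Overlapping annotations leave Sox4, Meis1, Myb, Runx2 and Mecom open to under-counting. The shared part was 6.26% of the exons in Myb, 5.87% in Runx2 (antisense gene Runx2os1) and 0.652% in Mecom.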

Other observations

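Genes near Mecom were looked at after its values were seen. Of 14 protein-coding genes within 1000000 bases of it on GRCm38, 8 were tested, and their absolute log2 difference between the Scr libraries ran from 0.0456 to 1.74, with a median of 0.181, beside 7.21 for Mecom. Mynn, a zinc finger gene 54057 bases away, had 2836, 2626, 3051 and 2911 counts in Scr 1, Scr 2, miR-99 KD 1 and miR-99 KD 2. Prkci, which encodes an atypical protein kinase C, was the widest of them, with 1143, 3769, 4574 and 2351 counts. It was higher in Scr 2 than in Scr 1, the opposite of Mecom. Egfem1 had 19, 21, 2 and 8 counts and was the 1 neighbour at an unadjusted p under 0.05 (log2 fold change -2.01 in edgeR's quasi-likelihood test).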
